A study of Mus musculus with 8 samples.

Results

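The nuclear genes described here keep and express the mitochondrial genome. Of the 10 genes, *Tfam*, *Tfb1m*, *Tfb2m* and *Polrmt* encode factors linked to mitochondrial transcription, *Polg*, *Polg2* and *Ssbp1* encode parts of the replication machinery, and *Nrf1*, *Gabpa* and *Gabpb1* encode nuclear transcription factors that act on many mitochondrial genes. They were looked up by gene name in 4 lists of ERRα ChIP-seq peaks, and an interval was counted when the authors' annotation gave it to the gene at a distance of at most 20 kb from the transcription start site (TSS). By this rule 25 intervals belonged to 6 of the 10 genes, and *Tfb1m*, *Tfb2m*, *Gabpa* and *Ssbp1* had none.

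ERRα is an orphan nuclear receptor that binds DNA as a regulator of genes for energy metabolism. ChIP-seq with an antibody to ERRα gave 1 list of peaks each for skeletal muscle (gastrocnemius and soleus) of WT mice, skeletal muscle of ERRα3SA mice, WT liver and ERRα3SA liver. ERRα3SA mice carry a phospho-mutant ERRα that lacks 3 serine phosphorylation sites, and all mice were males of 2 to 3 months on a C57BL/6N background, collected at zeitgeber time 9 on a standard diet. Each muscle sample was a pool of 5 mice and each liver sample a pool of 2, so that every list stands for 1 library. No replicate exists, no p-value can be given between genotypes or tissues, and a difference between lists cannot be told apart from a difference between libraries.

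Mitochondrial DNA is transcribed by a dedicated single-subunit RNA polymerase, POLRMT, which needs TFAM to bend the promoter DNA and TFB2M to open it. It is copied by POLG, a polymerase that works with its accessory subunit POLG2 and with a single-stranded DNA binding protein, SSBP1. All of these proteins are made from nuclear genes and imported. NRF1 and GABP, the latter formed by an ETS-domain subunit (GABPA) and a partner subunit (GABPB1), are the classical nuclear activators of such genes, and in oxidative tissues they act in one network with ERRα and its coactivator PGC-1α.

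The sequences that ERRα intervals at these genes contained are shown first. ERRα prefers an ERR response element (ERRE), searched here as TCAAGGTCA on either strand. Of the intervals counted by the rule, an ERRE was found at 3 places, given below with 15 bases on each side, in mm10 coordinates, on the strand that reads TCAAGGTCA, and with the ERRE in capitals. The first lies at chr10:79733277-79733285 beyond the 3′ end of *Polrmt*, in an intron of *Hcn2*. The second lies in an intron of *Polg2* at chr11:106777020-106777028, and the third lies upstream of *Nrf1* in intergenic DNA at chr6:30035403-30035411.
*Polrmt* 3′ side: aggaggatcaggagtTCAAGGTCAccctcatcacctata
*Polg2* intron: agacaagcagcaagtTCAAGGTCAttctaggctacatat
*Nrf1* upstream: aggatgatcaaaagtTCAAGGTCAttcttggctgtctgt

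All 9 bases of each of these 3 ERREs were soft-masked in the RefSeq genome, which marks interspersed repeats and low-complexity DNA. Over whole intervals, a fully soft-masked ERRE was held by 40.4% of the ERRE-bearing intervals within 20 kb of any TSS in WT muscle, 43.2% in ERRα3SA muscle, 52.4% in WT liver and 52.6% in ERRα3SA liver. Interval centres lay in an annotated repeat in 9 of the 25 intervals of the 10 genes. In muscle these were 1 of 8 WT and 3 of 6 ERRα3SA intervals, beside 16.9% and 19.7% of all intervals within 20 kb. In liver they were 2 of 5 WT and 3 of 6 ERRα3SA intervals, beside 25% and 22.6%.

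The places called in all 4 lists held no ERRE in the searched form TCAAGGTCA. Upstream of *Gabpa*, 711 bases (chr16:84834238-84834948) were common to the intervals of all 4 lists. They held AGGTCA half-sites, shown in capitals in chr16:84834494-84834670 (plus strand, where a half-site on the minus strand reads TGACCT), and the GABP core CCGGAAGT, shown in chr16:84834848-84834875 on the minus strand. The 429 bases common to all 4 lists in intron 1 of *Polg* (chr7:79465557-79465985) held 1 half-site, shown in chr7:79465612-79465731 on the coding, minus strand. This half-site, and the TGACCT of the *Gabpa* stretch read on the minus strand, stand in CCAAGGTCA. That differs from the searched ERRE only in its first base, so the search did not count it.
*Gabpa* upstream, half-sites: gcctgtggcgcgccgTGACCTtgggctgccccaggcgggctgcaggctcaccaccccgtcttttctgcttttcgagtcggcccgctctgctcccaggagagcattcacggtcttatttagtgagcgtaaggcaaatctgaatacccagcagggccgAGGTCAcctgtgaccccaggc
*Gabpa* upstream, GABP core: ggagccagggCCGGAAGTagaacggtgg
*Polg* intron 1, half-site: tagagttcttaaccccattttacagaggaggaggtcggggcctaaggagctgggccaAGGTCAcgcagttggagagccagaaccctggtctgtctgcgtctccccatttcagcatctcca

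The 4 lists held 25427 peaks in WT muscle, 50647 in ERRα3SA muscle, 21813 in WT liver and 29040 in ERRα3SA liver. A peak has a whole-number score of at least 30, read as 10 times the negative log10 of its FDR, and most peaks were weak, with a score under 50 for 55.2% to 84.5% of a list. Strength is therefore given as a rank within the list, tied peaks taking the best rank of the tie, and as the top percentage that this rank makes of the list. The lists carry no read numbers and the depth of the libraries is unknown. Among 8 muscle marker genes, 3 had an interval scoring at least 100 in WT muscle, 6 in ERRα3SA muscle, 1 in WT liver and 2 in ERRα3SA liver. Among 8 liver marker genes the numbers were 0, 0, 2 and 3.

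The share of the 10 genes with an annotated interval stood near that of genes in general in WT muscle and in liver. It was lower in ERRα3SA muscle, at a count of 3 genes that is too small to read as a trait of the set. WT muscle named 4 of them (*Gabpb1*, *Polg*, *Polrmt* and *Tfam*), against 34.4% of the 17492 protein-coding genes with a RefSeq promoter entry. ERRα3SA muscle, with the longest list, named 3 (*Nrf1*, *Polg* and *Polrmt*), against 47.5% of genes. When intervals annotated to neighbours were counted too, as described below, the same list had 6 of the 10 genes, beside 61.4% of all genes. WT liver named 4 (*Gabpb1*, *Polg*, *Polg2* and *Polrmt*; background 29.6%) and ERRα3SA liver named 4 (*Nrf1*, *Polg*, *Polg2* and *Polrmt*; background 37.5%). In any of the 4 lists the count was 6 of 10, beside 66.2% of all genes.

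Most of these intervals were weak, as were most intervals within 20 kb of any TSS in each list. Of the 25, 18 scored under 50, 7 scored at least 50 and 2 scored at least 100. All 5 at the lowest score of 30 were in WT muscle. A score under 50 was held by 7 of 8 WT and 5 of 6 ERRα3SA muscle intervals, beside 81.8% and 82.3% of all intervals within 20 kb. In liver it was held by 3 of 5 WT and 3 of 6 ERRα3SA intervals, beside 57.7% and 52.6%. The median top percentage of the genes' intervals was 66.4 in WT muscle (8 intervals), 31.2 in ERRα3SA muscle (6), 57.4 in WT liver (5) and 43.7 in ERRα3SA liver (6). For all intervals within 20 kb of a TSS the medians were 40.2, 38.7, 45.2 and 44.8. By annotation 16 of the 25 were intronic, 5 intergenic, 3 exonic and 1 at a promoter, and 7 had their centre within 1000 bp of the TSS. The annotation classes were not counted over all intervals. Within 1000 bp lay 2 of 8 WT and 1 of 6 ERRα3SA muscle intervals, beside 26.2% and 17.4% of all intervals within 20 kb. In liver 1 of 5 WT and 3 of 6 ERRα3SA intervals did, beside 20.6% and 22.6%.

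Counting by position gave other genes. The annotation gives each interval to 1 gene, the one whose TSS is nearest, and several of these genes share a start region with a neighbour. When an interval was counted for a gene because its centre lay within 20 kb of the gene's RefSeq TSS, whichever gene it was annotated to, 30 more intervals appeared and 12 of them scored at least 100. WT muscle then had an interval at 7 of the 10 genes (47.9% of all genes), ERRα3SA muscle at 6 (61.4%), WT liver at 6 (42.6%) and ERRα3SA liver at 7 (50.8%). Every gene but *Ssbp1* had one in at least 1 list, as had 77.7% of all genes.

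The strong intervals showed the difference most. Intervals scoring at least 100 within 20 kb stood at *Gabpa*, *Polrmt* and *Tfb2m* in WT muscle, where 5.15% of all genes had one, and at the same 3 genes in ERRα3SA muscle, where 9.32% had one. In WT liver they stood at *Gabpa* and *Tfb1m* (13.5% of all genes), and in ERRα3SA liver at *Gabpa*, *Polg*, *Polrmt* and *Tfb1m* (19.2%). This made 5 of 10 genes in any list, beside 22.5% of genes. Only at *Polg*, and at *Polrmt* in ERRα3SA liver, was the gene itself the one named in the annotation. Over all genes, 14.9% of those with an interval by position had none by annotation.

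**Figure D1:**
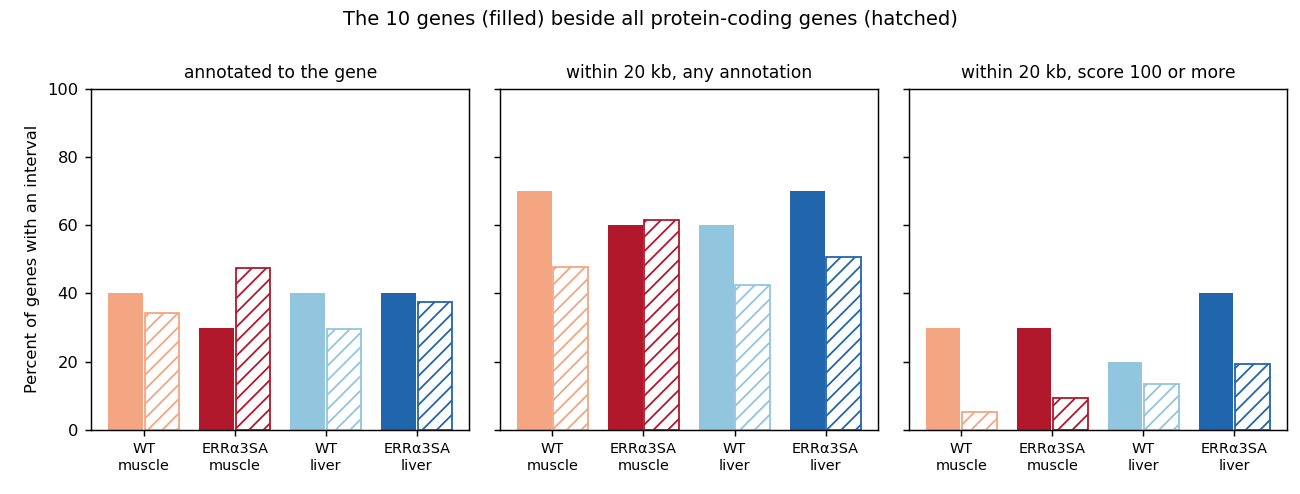
Percent of genes (vertical axis) with an interval in each list, for the 10 genes (filled bars) and for all 17492 protein-coding genes (hatched bars), under 3 rules. With intervals annotated to the gene the ERRα3SA muscle bar of the 10 genes (3 of 10) stood below the bar of all genes (47.5%). With any annotation the 2 bars of that list were close (6 of 10 beside 61.4%). With a score of at least 100 and any annotation the 10 genes stood higher in every list, each bar resting on 2 to 4 genes. The gap was small in WT liver (2 of 10 beside 13.5%), and *Gabpa* was counted in every list.

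**Figure D2:**
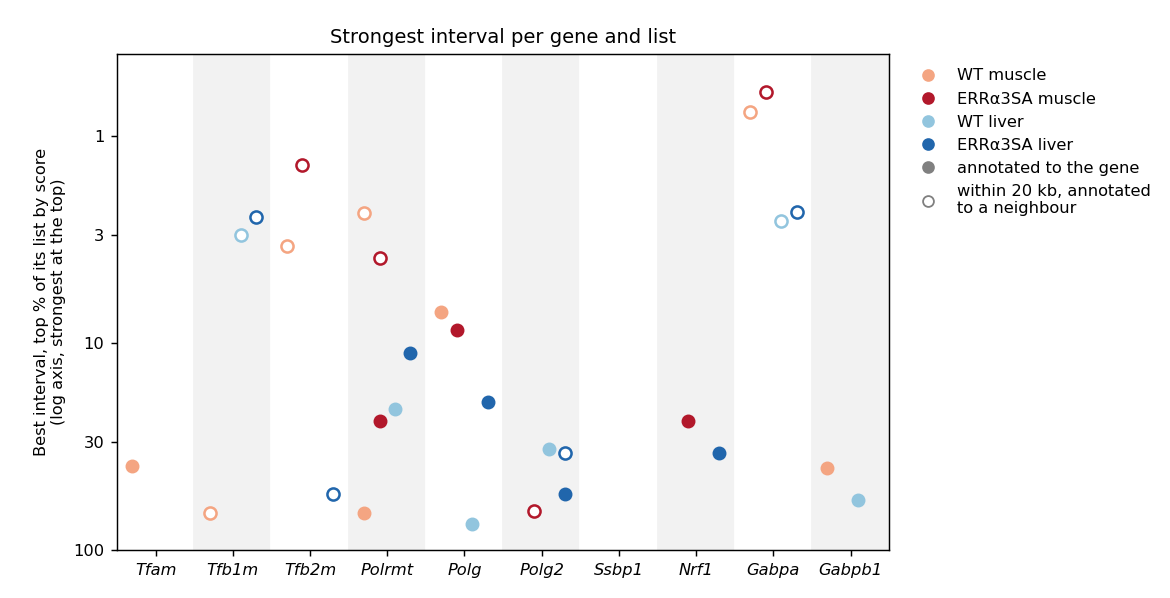
Strongest interval of each gene in each list as the top percentage of the list by score (log axis, strongest at the top). Filled points are annotated to the gene and open points lie within 20 kb but are annotated to a neighbour. *Gabpa* stood highest in all 4 lists, *Tfb2m* was strong in muscle and *Tfb1m* in liver, and *Ssbp1* has no point.

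Among the transcription factors of mitochondrial DNA, *Tfam* had intervals only in WT muscle. TFAM packages mitochondrial DNA and starts its transcription. The stronger of its 2 intervals, chr10:71243463-71243791, scored 38 at rank 9931 (top 39.1%) and lay 5583 bp upstream of the TSS in an LTR repeat. The other, chr10:71235120-71235421 in intron 3, had the lowest score of 30. In the other 3 lists no interval lay within 20 kb by any annotation, and in ERRα3SA muscle the nearest centre was 43008 bp away and annotated to *Ube2d1*.

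*Tfb2m*, whose product melts the mitochondrial promoter, was paired with *Cnst* on the opposite strand, the starts of both genes being 253 bp apart. A muscle interval in intron 1 of *Cnst* lay about 2.1 kb upstream of the *Tfb2m* TSS in both genotypes. In WT muscle it spanned chr1:179548090-179548667 with a score of 127 and rank 862 (top 3.39%). In ERRα3SA muscle it spanned chr1:179548101-179548653 with a score of 272 and rank 696 (top 1.37%). The centres were 1.5 bp apart, and neither liver list held an interval there. No ERRE, half-site, GABP core or NRF1 core was found in the 553 bases common to both, of which the middle 120 (chr1:179548318-179548437, plus strand) are shown.
*Cnst* intron 1: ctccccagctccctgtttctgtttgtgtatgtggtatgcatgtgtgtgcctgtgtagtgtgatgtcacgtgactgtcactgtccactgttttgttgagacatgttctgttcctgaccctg

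WT muscle also held a weak interval with a score of 31 (chr1:179546603-179546917) that the annotation gave to *Cnst* by distance but described as the promoter of a *Tfb2m* transcript. In ERRα3SA liver an interval scoring 43 lay at chr1:179556335-179556686.

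*Tfb1m* encodes a ribosomal RNA methyltransferase of mitochondria, related to TFB2M. Its TSS is 69 bp from that of *1700102H20Rik*, to which its strongest intervals were annotated. These lay about 13 kb upstream in both liver lists. WT liver held chr17:3570310-3571117 with a score of 369 and rank 658 (top 3.02%). ERRα3SA liver held chr17:3570171-3571099 with a score of 499 and rank 715 (top 2.46%). The centres were 78.5 bp apart. WT muscle had an interval of the lowest score, 30, at the same place and ERRα3SA muscle had none. The liver intervals held no TCAAGGTCA but 1 element of the relaxed form TNAAGGTCA (chr17:3570820-3570828, letters TGAAGGTCA), which was not soft-masked.

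*Polrmt*, the mitochondrial RNA polymerase gene, had the most intervals, most of them far from its start. The locus with the ERRE shown above lay about 13 kb downstream of the TSS, past the 3′ end of the gene and in intron 5 of *Hcn2*, a channel gene on the opposite strand. ERRα3SA liver had the strongest interval there, chr10:79732906-79733877, with a score of 168 and rank 3231 (top 11.1%). WT liver had chr10:79732784-79733534 with a score of 82 and rank 4523 (top 20.7%), its centre 232.5 bp away. ERRα3SA muscle had chr10:79732832-79733533 with a score of 42 and rank 11987 (top 23.7%), and WT muscle had none.

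About 3 kb further on in *Hcn2*, the order of the tissues was the other way round. WT muscle held chr10:79729825-79730403 with a score of 168 and rank 600 (top 2.36%). ERRα3SA muscle held chr10:79729527-79731043 with a score of 119 and rank 1955 (top 3.86%). WT liver held chr10:79729967-79730671 with a score of 44 and rank 9851 (top 45.2%), and ERRα3SA liver held none at this place. These intervals were annotated to *Hcn2* and held no ERRE.

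Within the *Polrmt* gene body, intervals were confined to scores of at most 37 in these lists. WT muscle had 3, all at the lowest score of 30. ERRα3SA muscle had 1 with a score of 36 over exon 10 (chr10:79739195-79739882), which overlapped 1 of the WT intervals, the centres being 488.5 bp apart. ERRα3SA liver had 1 with a score of 37 in intron 1, 229 bp from the TSS (chr10:79746178-79746526). WT liver had no interval in the gene body, and its other interval annotated to *Polrmt* was one with a score of 38 in *Hcn2*. The remaining intervals within 20 kb, annotated to *Hcn2*, *Fgf22* and *Rnf126*, scored 30 to 56. The strongest of them was a WT liver interval in *Rnf126*, chr10:79765910-79766194, at rank 7108 (top 32.6%), which shared its place with an ERRα3SA muscle interval with a score of 30 (chr10:79765350-79766192).

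In intron 3 of *Hcn2*, both ERRα3SA lists held an interval over an ERRE that was not soft-masked. It scored 39 in ERRα3SA muscle (chr10:79728492-79729183) and 49 in ERRα3SA liver (chr10:79728465-79729122), and its ERRE at chr10:79728669-79728677 is shown in capitals on the minus strand. A WT muscle interval with a score of 49 (chr10:79727756-79728563) overlapped their edge, ended before this ERRE and held another, soft-masked one.
*Hcn2* intron 3: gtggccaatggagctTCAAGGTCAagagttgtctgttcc

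Among the replication genes, *Polg* was the only one with an annotated interval in all 4 lists. It encodes the catalytic subunit of the mitochondrial DNA polymerase. The interval lay in intron 1, just past the TSS, and 3 of its 4 forms stopped short of the TSS. In WT muscle it spanned chr7:79465470-79466203 with a score of 73 and rank 1805 (top 7.10%). In ERRα3SA muscle it spanned chr7:79464754-79466302, over the TSS, with a score of 65 and rank 4392 (top 8.67%). In WT liver it was narrow and weak, at chr7:79465557-79465985 with a score of 33 and rank 16370 (top 75.0%). In ERRα3SA liver it spanned chr7:79465263-79466026 with a score of 104 and rank 5616 (top 19.3%).

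As top percentages of their lists, the *Polg* intervals were thus close in muscle and far apart in liver. The rank itself was 1805 in WT against 4392 in ERRα3SA muscle, in lists of different length. The liver centres were 126.5 bp apart and counted as shared. The muscle centres were 308.5 bp apart, just over the limit of 300 bp, although the WT interval lay wholly inside the ERRα3SA one. The 4 intervals were rich in CpG, with 6.82% to 10.2% CpG by the lists, where the median of all intervals within 20 kb was 1.42% to 1.86%. That background is unlike them in position. The 4 were centred within 1 kb of the TSS and marked CpG in the detailed annotation, whereas 17.4% to 26.2% of all intervals within 20 kb lay within 1 kb. The CpG content of intervals near a TSS alone was not computed. The *Polg* annotation also held a promoter interval in ERRα3SA liver with a score of 32 (chr7:79466353-79466804, 305 bp upstream), 1 interval of score 30 in WT muscle and 2 in ERRα3SA muscle scoring 35 and 36.

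*Polg2*, which encodes the accessory subunit, had an interval in intron 3 in liver only. WT liver held chr11:106776497-106777103 with a score of 56 and rank 7108 (top 32.6%). ERRα3SA liver held chr11:106776262-106777035 with a score of 43 and rank 15499 (top 53.4%). The centres were 151.5 bp apart. The ERRE shown above lay inside both intervals and outside the central 300 bp of both. About 17 kb downstream, *Milr1* had intervals scoring 30 to 61 in 3 of the lists, all but WT muscle. Where the intervals of these lists overlapped, ERRα3SA liver held chr11:106761959-106762766 with a score of 61 and rank 9882 (top 34.0%). WT liver held chr11:106761826-106762581 with a score of 33, and ERRα3SA muscle held chr11:106762381-106762654 with a score of 30.

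*Ssbp1*, the gene of the mitochondrial single-stranded DNA binding protein, had no interval within 20 kb in any list. The nearest interval was centred 35351 bp from the TSS in WT muscle. In liver it was 51498 bp away in WT and 340880 bp away in ERRα3SA mice.

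**Figure D3:**
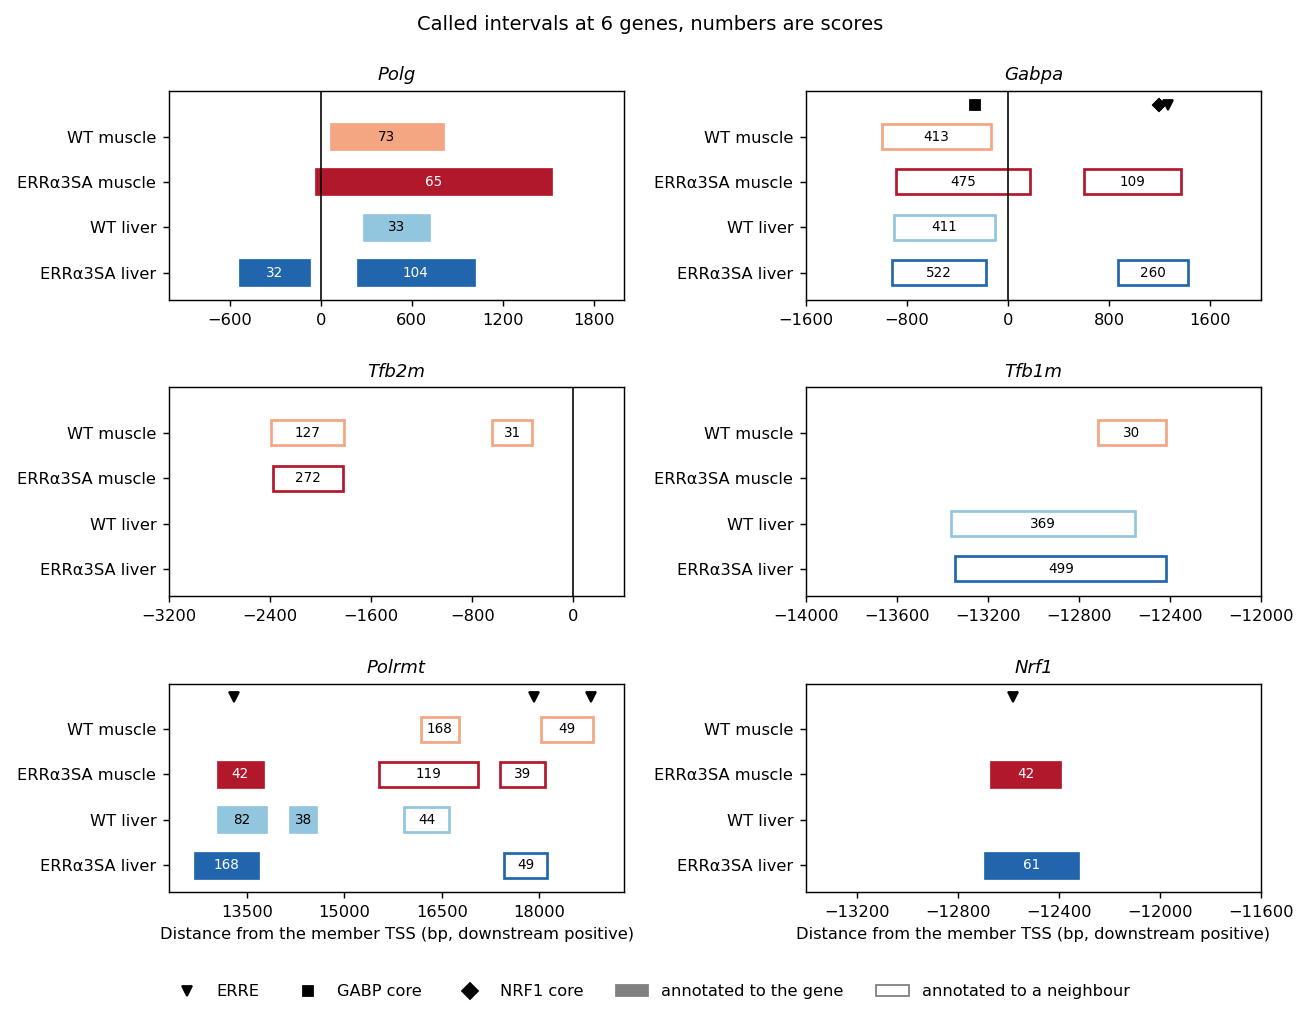
Called intervals at 6 of the genes, drawn to scale by distance from the gene's TSS (bp, downstream positive), 1 row per list, with the score of each. Filled bars are annotated to the gene, open bars to a neighbour, and black symbols mark an ERRE (triangle), a GABP core (square) or an NRF1 core (diamond) in an interval. The *Polg* and upstream *Gabpa* intervals stood in all 4 rows, the second *Gabpa* and the *Nrf1* intervals only in the ERRα3SA rows, *Tfb2m* (2.1 kb upstream) only in the muscle rows.

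Of the nuclear regulators, *Gabpa* had by far the strongest intervals, although none was annotated to it. The gene starts on the opposite strand to *Atp5j*, which encodes coupling factor 6 of ATP synthase, and the *Gabpa* TSS is 148 bp and 501 bp from the 2 RefSeq starts of *Atp5j*. In all 4 lists an interval covered the region upstream of the *Gabpa* TSS and was given to *Atp5j* by distance, while the position field of the annotation called it the promoter of the *Gabpa* transcript. Its centre lay in an intron of *Atp5j* in all 4 lists, so it belongs to a start region that both genes share.

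In WT muscle the interval upstream of *Gabpa* spanned chr16:84834125-84834989 with a score of 413 and rank 194 (top 0.763%). In ERRα3SA muscle it spanned chr16:84834238-84835296, over the *Gabpa* TSS, with a score of 475 and rank 310 (top 0.612%). In WT liver it spanned chr16:84834217-84835017 with a score of 411 and rank 563 (top 2.58%). In ERRα3SA liver it spanned chr16:84834201-84834948 with a score of 522 and rank 675 (top 2.32%). Each centre lay within 300 bp of the centre in every other list, and the top percentages of the 2 genotypes were close in each tissue.

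A second interval about 1 kb downstream of the *Gabpa* TSS was called only in the ERRα3SA lists. In muscle it spanned chr16:84835726-84836487 with a score of 109 and rank 2285 (top 4.51%). In liver it spanned chr16:84835992-84836547 with a score of 260 and rank 1860 (top 6.40%). Both were annotated to *Atp5j*, and the position field called them the promoter of an *Atp5j* transcript. Both lay within *Gabpa*, their centres in an intron of it. They held the palindrome GCGCATGCGC, which carries the NRF1 core GCGCATGC on each strand, and an ERRE on the minus strand (plus strand TGACCTTGA), both in capitals in chr16:84836298-84836407. The ERRE was soft-masked in full and the NRF1 core in part.
*Gabpa* intron: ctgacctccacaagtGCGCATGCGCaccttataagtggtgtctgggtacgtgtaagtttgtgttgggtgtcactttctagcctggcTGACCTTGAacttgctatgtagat

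*Nrf1* was likewise called within 20 kb in the ERRα3SA lists only, at the upstream ERRE shown above. ERRα3SA liver held chr6:30035295-30035665 with a score of 61 and rank 9882 (top 34.0%), 12508 bp upstream of the TSS. ERRα3SA muscle held chr6:30035321-30035592 with a score of 42 and rank 11987 (top 23.7%). Just outside the limit, ERRα3SA liver held 1 more interval 20828 bp upstream (chr6:30026965-30027356, score 61), centred in a B1F SINE, with another soft-masked ERRE. WT muscle held 1 interval in intron 9, 42039 bp from the TSS, with a score of 36.

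*Gabpb1* showed the opposite, with intervals in the WT lists only. WT muscle held chr2:126674976-126675852 over a TSS of the gene, with a score of 36, rank 10219 (top 40.2%) and 12.1% CpG, the highest of the 25. WT liver held chr2:126683270-126683543, listed 7069 bp upstream as intergenic and in an LTR repeat, with a score of 38 and rank 12528 (top 57.4%). By the RefSeq gene models the centre of this WT liver interval lay in an intron of *Gabpb1*. At scores this close to the lower limit of the lists, a call in 1 list and none in the other is not a measured difference in binding.

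**Figure D4:**
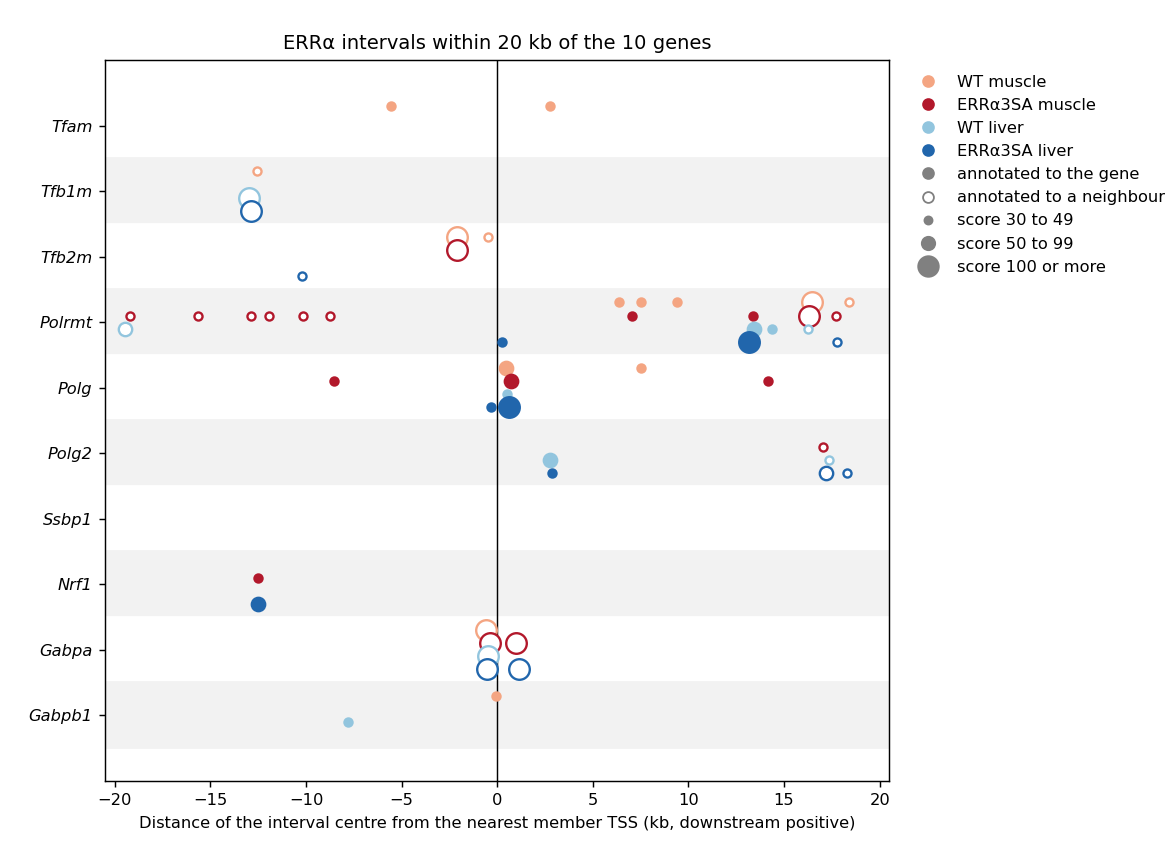
Distance of each interval centre from the nearest TSS of the gene (kb, downstream positive), by gene and list (colours), for all intervals within 20 kb. Filled points are annotated to the gene, open points to a neighbour, and the size gives the score class. The strong intervals (largest points) stood near the TSS at *Polg*, *Gabpa* and *Tfb2m*, about 13 kb upstream at *Tfb1m* and 13 to 16 kb downstream at *Polrmt*.

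Joined by overlap, the 25 annotated intervals formed 17 loci. Of these, 12 were called in 1 list, 3 in 2 lists, 1 in 3 lists (*Polrmt* with its ERRE) and 1 in all 4 (*Polg* intron 1). By centres within 300 bp, no gene had an annotated interval shared between the genotypes in muscle, where 10.4% of all genes had one. Intervals annotated to neighbours were shared in muscle beside *Gabpa*, *Tfb2m* and *Polrmt* (in *Hcn2*), with centres 210, 1.5 and 171 bp apart. The share of all genes with such sharing by position was not computed. In liver *Polg*, *Polg2* and *Polrmt* had an annotated interval shared between the genotypes, where 16.8% of all genes had one. The intervals annotated to neighbours formed 16 loci, of which 8 were called in 1 list, 3 in 2, 4 in 3 and 1 (upstream of *Gabpa*) in all 4. Loci were not counted in this way over all genes, so these locus counts have no background and show no trait of the 10 genes.

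The ERRE was counted within the central 300 bp of the annotated intervals. It was found in 0 of 8 WT muscle intervals (4.45% of all intervals within 20 kb), 2 of 6 in ERRα3SA muscle (4.86%), 1 of 5 in WT liver (15.2%) and 2 of 6 in ERRα3SA liver (14.9%). The intervals that held it were those of *Polrmt* and *Nrf1*. Over the whole interval the counts were 0, 2, 2 and 3, with *Polg2* added.

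The RefSeq promoters of the genes, 250 bases before to 50 bases after the TSS in GRCm38.p6, were searched for the same motifs, and all 10 genes had an entry. None held an ERRE, which 0.334% of 21263 promoters of coding genes held. The GABP core was found upstream of *Polg* and *Tfam* (5.15% of promoters) and the NRF1 core at *Polrmt* and *Tfb2m* (3.52%). They are shown with 10 bases on each side on the coding strand, the *Tfb2m* one reading GCATGCGC because the core lies on the other strand there. They lie at chr7:79466294-79466321, chr10:71238074-71238101, chr10:79746697-79746724 and chr1:179546246-179546273. No interval of any list covered 1 of these 4 cores, the *Polg* interval of ERRα3SA muscle ending 2 bp short of the GABP core and the nearest interval to the *Tfam* core lying 2663 bp away.
*Polg* promoter, GABP core: aggacctcacCCGGAAGTccctctgcac
*Tfam* promoter, GABP core: ctgccgcggaCCGGAAGTccgggcttcc
*Polrmt* promoter, NRF1 core: gagtatttctGCGCATGCtctcttgccg
*Tfb2m* promoter, NRF1 core: taggtcgttcGCATGCGCcattcgtaat

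Other genes of mitochondrial DNA upkeep, nucleotide supply and RNA turnover, with 4 further transcription factors, formed a list of 28 genes. An interval within 20 kb was annotated to 9 of them in WT muscle, 12 in ERRα3SA muscle, 10 in WT liver and 11 in ERRα3SA liver, and to 21 in any list. The backgrounds given above for annotated intervals (34.4%, 47.5%, 29.6%, 37.5% and 66.2%) apply to these counts. Among intervals annotated to these genes, a score of at least 100 was reached only by *Lrpprc*, whose product stabilises mitochondrial messenger RNAs. Its interval in intron 1 scored 108 in WT muscle (chr17:84790066-84790547, top 4.16%) and 82 in ERRα3SA muscle (top 6.12%). It scored 104 in WT liver (rank 3500) and 104 in ERRα3SA liver (rank 5616). By annotation, 2 of the 10 genes reached 100 in ERRα3SA liver (*Polg* and *Polrmt*) and 0 in each of the other lists. The share of all genes was not computed by annotation at this score. The counts by position given above for the 10 genes are not comparable with this one.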

How the data were processed

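ERRα ChIP-seq peak lists of muscle and liver from WT and ERRα3SA mice were used, 1 list each. The 4 input libraries served the authors as controls and hold no list. The authors used Trimmomatic 0.36 for trimming and BWA-MEM 0.7.12 for alignment to mm10, removed duplicates with Picard 2.0.1, called peaks with MACS2 2.1.1.20160309 against input, filtered them by FDR, removed mitochondrial and scaffold peaks, and annotated the rest with HOMER 4.9.1. The labels give 3 pooled ChIPs per sample and the methods 4. The deposited peak score is a whole number of at least 30, read here as 10 times the negative log10 of the FDR. The distance to the TSS is the authors' value in bp. CpG and GC contents were deposited as fractions and are given as percent. Methods describe fixed peak windows, whereas the intervals vary from 234 to 6788 bp.

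The members and lists were chosen with earlier results of these data known. All 10 genes are named, intervals are given in full from a score of 50 or where at least 2 lists share them, and the 28 further genes are named only with a score of at least 100. The windows at the second *Gabpa* interval, at the *Hcn2* intron 3 locus and at the promoter cores, and weaker intervals given in full, were chosen after their values were seen. Positions are 1-based on GRCm38.p6. Listed GC content equalled that of this genome, within 1 base, for 25427, 50645, 21811 and 29038 intervals. Sharing between lists required a centre distance of at most 300 bp. Distances by position are from the RefSeq TSS, and backgrounds cover genes with a RefSeq promoter entry. Motifs were searched on both strands and may overlap: AGGTCA lies inside TCAAGGTCA. Python 3.11.15, pandas 2.3.3, pysam 0.24.0 and samtools 1.23.1 were used, and overlap and motif search were tested on simulated data. Alternatives were other scores, distances, list lengths, centre limits, shared bases, the whole interval, TNAAGGTCA and annotation by position.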

Additional observations from a re-analysis of the deposited data

Results flagged for a closer look

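The number of annotated intervals moved opposite ways between the genotypes in the 2 tissues. ERRα3SA minus WT was -2 in muscle (6 against 8 intervals) and 1 in liver (6 against 5). The muscle lists held 50647 peaks in ERRα3SA and 25427 in WT mice, and 5 of the 25 intervals had the lowest score of their list. The opposite directions were lost with lists of equal length, where both liver lists held 5 intervals, and with a score of at least 50, where both muscle lists held 1. The muscle difference itself was wider with lists of equal length, at 4 ERRα3SA against 8 WT intervals. The difference between the tissues was not tested, since each list is 1 library.

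At *Polg*, the top percentage of the strongest interval also moved opposite ways. ERRα3SA minus WT was 1.57 percentage points in muscle (8.67 against 7.10) and -55.7 percentage points in liver (19.3 against 75.0). This difference was not tested either. The lists differ in length, so that the same top percentage stands for different ranks.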

How the results depend on the processing

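Of 88 values under alternatives, 52 stayed within 1.5 times the main count and 36 did not. No paired analysis was possible because each group holds 1 library and no result comes from a test. Leaving out a library was not possible either. With a score of at least 50, 1 gene was left in WT muscle, 1 in ERRα3SA muscle and 2 in WT liver, with 1, 1, 2 and 3 intervals in WT muscle, ERRα3SA muscle, WT liver and ERRα3SA liver, 0 ERRE-bearing intervals in ERRα3SA muscle and 1 gene shared in liver. With a score of at least 100, the genes left were 0, 0, 0 and 2 and the intervals 0, 0, 0 and 2, with 0 ERRE-bearing intervals in ERRα3SA muscle, 0 in WT liver and 1 in ERRα3SA liver, and 0 genes shared in liver. Within 5 kb, 3 intervals were left in WT muscle, 1 in ERRα3SA muscle and 2 in WT liver, with 1 gene in ERRα3SA muscle and 2 in WT liver, and 0 ERRE-bearing intervals in ERRα3SA muscle, WT liver and ERRα3SA liver. By position with any annotation, 7 genes had an interval in WT muscle, 6 in ERRα3SA muscle and 7 in ERRα3SA liver. Over whole intervals, 2 in WT liver held the ERRE. Sharing in muscle rose from 0 to 2 genes with centres within 1000 bp or with at least 1 shared base, and sharing in liver fell to 0 with centres within 100 bp. Fewer intervals pass each stricter limit by construction. A main count of 0, as for the ERRE in WT muscle and for sharing in muscle, can only stay 0 there and was counted as unchanged. No value moved by more than 1.5 times within 50 kb, with lists of equal length in a tissue or with TNAAGGTCA. Most intervals stand near the lower limit of the lists and the depth behind them is unknown, so a missing call is not evidence of absent binding.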
